A study of Mus musculus with 6 samples.

Results

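The genes described here encode heterogeneous nuclear ribonucleoproteins (Hnrnp symbols) and serine/arginine-rich splicing factors (Srsf symbols) that carried a Bcl6 peak in cortical progenitors, which had been differentiated from mouse embryonic stem (ES) cells. They were chosen by symbol from the authors' list of genes near peaks, taking every symbol that starts with Hnrnp or is Srsf plus a number. This gave 21 of the 4540 listed genes, 13 Hnrnp and 8 Srsf genes, with 35 of the 3878 peaks, 22 at Hnrnp and 13 at Srsf genes. A gene enters that list only through a called peak, so the peak calls themselves selected the members, and the presence, height, width and position of their peaks are given as descriptions with no test.

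The study located Bcl6 on chromatin by immunoprecipitation followed by sequencing (ChIP-seq) in A2 lox.Cre Bcl6 cells, an ES line in which a tetracycline-inducible Bcl6 transgene can be switched on. Bcl6 was precipitated with an antibody for 3 ChIP libraries, and input DNA, the sonicated chromatin before precipitation, gave 3 more. All 6 came from cells at differentiation day 12 after 24 h of Bcl6 induction with doxycycline at 1 µg/ml, so the input cells were induced as well. The series' design says that data of 3 experiments were pooled for analysis, and the peaks were called once on pooled ChIP against pooled input. No value below therefore has a replicate error. No uninduced cells were analysed here, so binding of the transgene's product and of endogenous Bcl6 cannot be told apart. The labels call the cells cortical progenitors, and a table of peaks holds no marker expression against which to check this. The pooled ChIP held 56836596 tags, of which 11718276 (20.6%) were kept at 1 tag per position, and the pooled input 12808138 tags, of which 5048582 (39.4%) were kept. Tags from the 3 libraries of a group cannot be separated, and their shares of the pool are unknown.

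Bcl6 is a zinc finger protein of the BTB family that represses transcription, and in the developing cortex it is known for promoting the step from progenitor to neuron. Heterogeneous nuclear ribonucleoproteins (hnRNPs) coat nascent transcripts and influence splice site choice, export, stability and translation of mRNA, often by blocking splice sites. Serine/arginine-rich (SR) proteins bind enhancer sequences in exons and recruit the spliceosome, and they frequently act against hnRNPs on the same transcripts. Splicing programmes change as neural progenitors become neurons, and proteins of both families take part in that change.

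Promoter sequence was examined first, because 18 of the 35 peaks lay over a transcription start site (TSS). RefSeq promoter windows of 300 bases, from 250 before to 50 after a start, were at hand for all 21 genes on GRCm38.p6, the same build as mm10. There were 26 windows, and 23 of them, from 18 genes, lay wholly inside a peak. The windows not wholly inside a peak were those of Hnrnpc, Hnrnpl and Srsf12. The 250 bases upstream of 4 starts are printed, 3 for genes with the largest part of their span under peaks or the widest peaks (Srsf3, Srsf6 and Hnrnpab) and 1 for the most CpG-rich member window (Hnrnpa0). Each reads 5′ to 3′ on the gene's own strand, and capitals mark CG dinucleotides, of which there are 35 in Srsf3, 35 in Srsf6, 23 in Hnrnpab and 46 in Hnrnpa0.
Srsf3 promoter, chr17:29032410-29032659, plus strand: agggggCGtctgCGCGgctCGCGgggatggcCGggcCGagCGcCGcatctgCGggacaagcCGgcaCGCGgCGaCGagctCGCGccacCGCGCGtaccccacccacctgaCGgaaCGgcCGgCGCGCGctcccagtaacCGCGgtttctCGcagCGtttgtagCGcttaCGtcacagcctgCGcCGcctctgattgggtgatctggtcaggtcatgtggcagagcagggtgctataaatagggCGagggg
Srsf6 promoter, chr2:162931258-162931507, plus strand: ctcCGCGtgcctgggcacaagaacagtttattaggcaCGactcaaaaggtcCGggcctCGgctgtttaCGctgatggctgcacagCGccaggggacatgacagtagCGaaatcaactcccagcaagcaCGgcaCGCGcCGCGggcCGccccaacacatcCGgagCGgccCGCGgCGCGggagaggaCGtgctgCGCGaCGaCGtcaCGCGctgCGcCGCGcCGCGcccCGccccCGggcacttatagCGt
Hnrnpab promoter, chr11:51606882-51607131, minus strand: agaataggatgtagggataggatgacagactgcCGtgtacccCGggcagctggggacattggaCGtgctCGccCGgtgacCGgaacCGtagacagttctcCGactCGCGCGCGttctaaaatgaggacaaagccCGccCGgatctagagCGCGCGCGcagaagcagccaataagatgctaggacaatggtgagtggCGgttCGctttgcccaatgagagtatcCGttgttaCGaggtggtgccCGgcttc
Hnrnpa0 promoter, chr13:58128557-58128806, minus strand: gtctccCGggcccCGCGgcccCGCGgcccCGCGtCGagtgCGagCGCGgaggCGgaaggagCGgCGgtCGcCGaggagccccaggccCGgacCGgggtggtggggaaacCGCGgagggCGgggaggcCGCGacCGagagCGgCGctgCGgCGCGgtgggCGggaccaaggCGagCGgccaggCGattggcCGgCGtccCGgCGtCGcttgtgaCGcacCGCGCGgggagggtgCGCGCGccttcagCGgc

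These runs are examples of the GC content and CG density of the member windows. Their median GC content was 66.8% (range 48.3 to 79.7%), against 52.7% over all 32851 RefSeq windows and 65.7% over the 2726 windows that lay inside any peak. The median number of CG dinucleotides was 30 per window (16 to 52), against 7 over all windows and 26 over windows inside peaks. Hnrnpa1 had the poorest member window with 16 CG dinucleotides, and Hnrnpa0 the richest with 52. Since 23 of the 26 windows lay inside a peak and so are themselves part of the latter set, nothing is read from their nearness to it.

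The Bcl6 core motif was searched on both strands as TTCCTAGAA, as TTCCTCGAA and as TTCCTNGAA, which contains the other two. None of these was found in any of the 26 windows of the 21 genes. The exact binomial interval of 0 of 21 genes reaches 16.1%. It treats the genes as independent draws, although they are the whole set taken by symbol, so it only shows how small the count is. TTCCTNGAA stood in 1.59% of all windows and in 1.25% of windows inside a peak. The wider TTCNNNGAA, which also fits STAT factors, was found in 2 of 21 genes, Hnrnpa2b1 and Hnrnph1. It stood in 3 of 26 member windows (11.5%), against 8.30% of all windows, and in 3 of 23 member windows inside a peak (13.04%), against 6.20% of all windows inside a peak. The windows of Hnrnpa2b1 overlap and hold the same match. Both genes' matches lay inside a peak and are shown with 10 bases on each side, the match in capitals.
Hnrnpa2b1 match, chr6:51470028-51470056, minus strand: ccttccgcaaTTCACGGAAcacagttgcg
Hnrnph1 match, chr11:50376804-50376832, plus strand: gtcagtcagaTTCGGAGAAactcgggaca

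In Hnrnpa2b1 the match began 152 or 201 bases before the start, depending on which of 2 annotated starts was used, and in Hnrnph1 it began 176 bases before. These matches are letters in a window and not a measure of binding. Sequence under the peaks outside the promoter windows was not analysed here.

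The typical peak of these genes was wide and of modest enrichment. Fold enrichment is the authors' ratio of ChIP tags to the local background from the input. Its median was 15.6-fold over the 35 peaks (9.71 to 47.05), against 21.3-fold over all 3878 peaks, and 28 of the 35 lay below that overall median. Width had a median of 2482 bp (917 to 8393), against 1405 bp over all peaks. A peak wider than 2 kb is called wide here, and 30 of the 35 (85.7%) were, where 22.8% of all peaks were.

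Tags and scores did not follow the low enrichment. A member peak held a median of 119 tags (30 to 476), against 58 over all peaks, and 46.3 tags per kb, against 40.0. The p-value score is −10 log10 of the peak caller's p, so a higher score is a stronger call. Its median was 97.15 (51.7 to 494), against 71.7 over all peaks, and 24 of the 35 scored above the overall median. The member peaks covered 109 kb and held 5295 tags, which made them 0.903% of the peaks, 1.66% of the bases under peaks and 1.78% of the tags in them. Within the wide peaks alone the members' median fold was 15.1 over 30 peaks against 17.3 over all 885, and their median score of 98.9 was also below the 104 over all 885. The higher score of the member peaks was thus not seen among wide peaks. Among peaks at most 2 kb wide, the members' median score was 72.5 over 5 peaks, against 67.0 over all 2993. The empirical false discovery rate (FDR) that the authors' table gives was at most 5% for 34 of the 35 (97.1%), against 99.0% of all peaks.

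**Figure D1:**
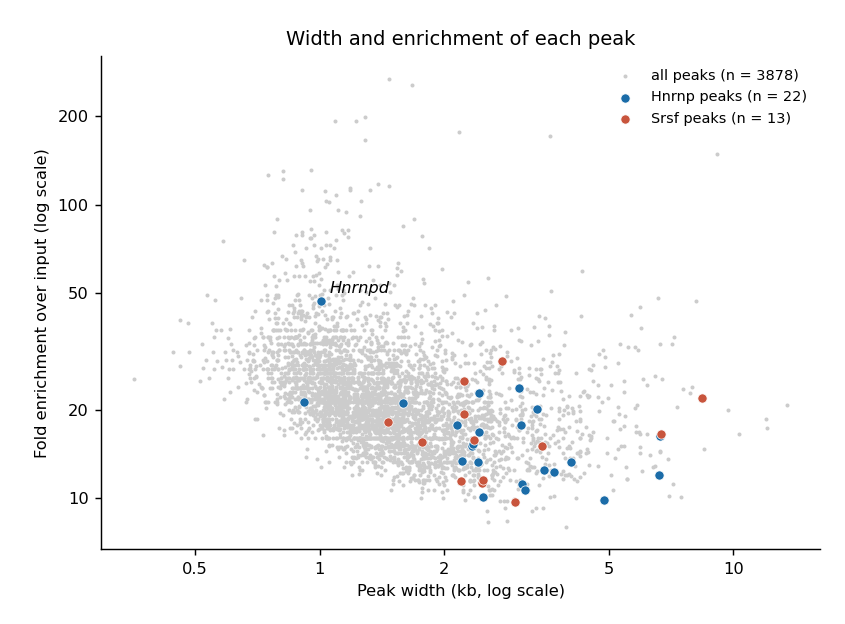
Fold enrichment over input (vertical axis, log scale) against peak width in kb (horizontal axis, log scale) for all 3878 peaks (grey), the 22 Hnrnp peaks (blue) and the 13 Srsf peaks (red). Most member peaks lie to the right of 2 kb and under 20-fold, and the narrow Hnrnpd peak at 47.05-fold stands apart from them.

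Hnrnp and Srsf peaks had overlapping values. The median fold was 15.2 at Hnrnp and 15.7 at Srsf genes, and the median width 2759.5 and 2469 bp. Wide peaks made up 19 of 22 and 11 of 13. The median score was 99.5 at Hnrnp and 79.05 at Srsf genes, with overlapping ranges of 51.8 to 328 and 51.7 to 494.

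Peaks were placed by the distance of their centre from the listed TSS and by the strand and span of the gene in RefSeq. The centre was within 1 kb of the TSS for 15 of 35 peaks (42.9%), close to the 41.7% over all peak and gene pairs, and the peak covered the TSS for 18 of 35 (51.4%), against 42.3%. At the 18 start sites covered, the summit was downstream of the TSS in 12, with a median of 210.5 bp downstream (from 1146.5 bp upstream to 1804 bp downstream). Over all pairs with a covered TSS and a known strand the summit was downstream in 49.8%, with a median 1.5 bp upstream.

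Nearly every centre lay on the gene's side of its start, a measure that was chosen after seeing the data. The centre was downstream of the TSS for 34 of 35 peaks, where 56.9% of all pairs were downstream. Peaks over the 3′ end of a gene and not its TSS are downstream by their place. By summits the share was 82.9%, against 55.2% over all pairs with a strand. Wide peaks alone gave a similar background, 60.3% of 1384 pairs. Among the 15 member peaks within 1 kb, 14 were downstream, against 53.3% of all pairs within 1 kb. The exception was Srsf9, whose centre lay 20 bp upstream.

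A second group of peaks covered the 3′ end of the gene. This measure was also chosen after seeing the data. The 3′ end was covered by 7 of 35 member peaks (20.0%), where 5.15% of the 4579 pairs with a known strand covered one. Width and gene length enter this comparison: among pairs of wide peaks with genes of the members' length range (2678 to 39226 bp) the share was 14.7%, and among the members' own wide peaks 23.3%. The remaining member peaks lay inside the gene away from the listed TSS and the 3′ end (4) or outside it (6). Over all pairs with a strand, 14.2% lay inside and 38.7% outside.

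In 7 of 21 genes (33.3%), one listed peak covered the TSS and another the 3′ end. These were Hnrnpa1, Hnrnpa2b1, Hnrnpa3, Hnrnpab, Srsf3, Srsf6 and Srsf7. Of the 3582 listed genes with a known strand, 3.55% had both ends covered. Ribosomal protein and translation factor genes, taken by symbol prefix, had both ends covered in 14 of 51 (27.5%) and 5 of 23 (21.7%). The difference from these families was not tested. The comparison shares also count a single peak over both ends, and were not matched for peak width or gene length. Median gene length was 10303 bp for the members and 21009 bp for the 3582 listed genes. At 6 of the 7 the summit of the 3′ peak lay past the annotated end, by a median of 780 bp over the 7 and at most 2997 bp, at Srsf3. Over all 236 pairs with a covered 3′ end, 68.2% of summits lay past it, with a median of 386.5 bp. Srsf6 was the exception, with a summit 31 bp before the end. These 7 peaks had a median width of 3493 bp and a median fold of 12.4, against 2733.5 bp and 19.6-fold over the 206 peaks that covered any 3′ end.

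**Figure D2:**
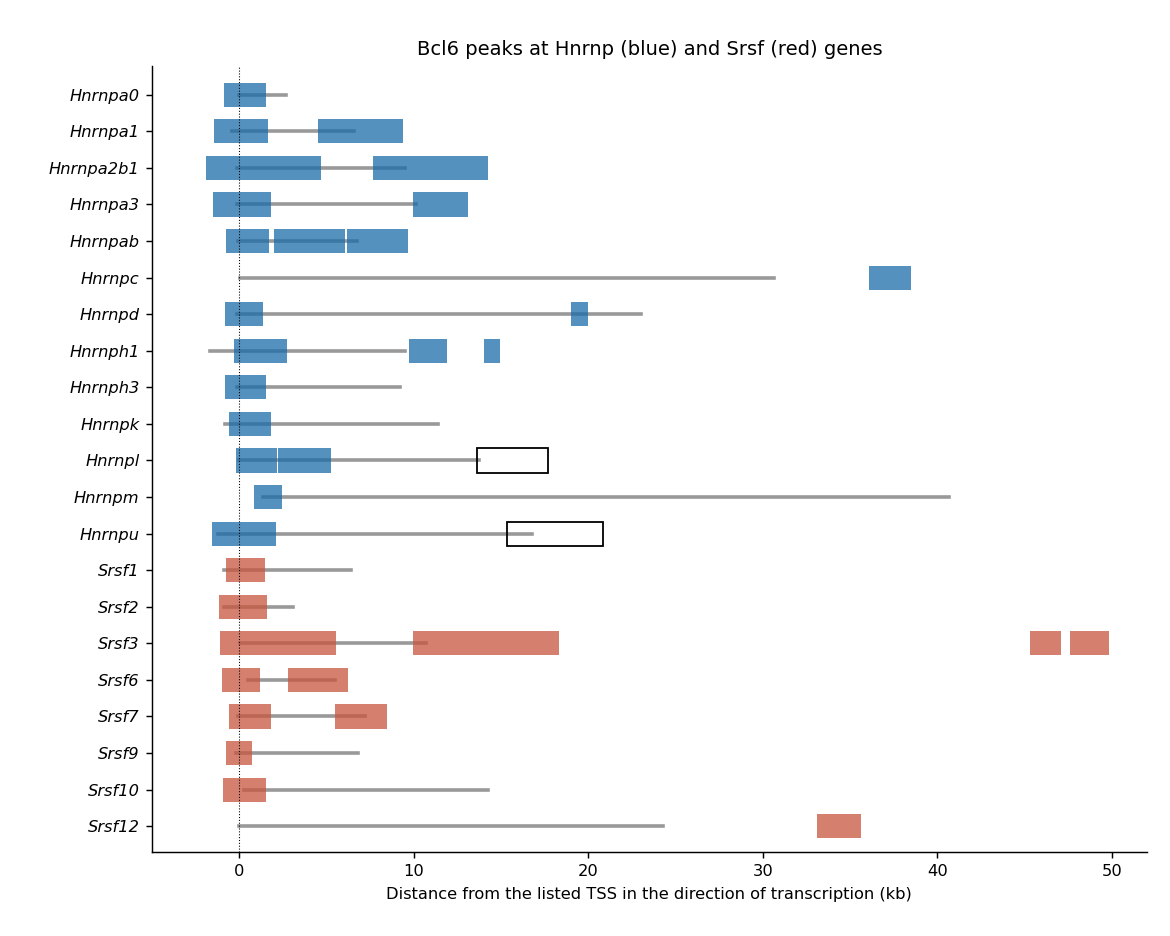
Position of every listed peak (filled boxes, blue for Hnrnp and red for Srsf genes) along the distance from the listed TSS in kb, in the direction of transcription, with the RefSeq gene span as a grey line. Open boxes are the 2 further peaks over the 3′ ends of Hnrnpl and Hnrnpu that the list gives to a neighbouring gene. Boxes at both ends of the grey line recur in 9 genes when the open boxes are counted.

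Further 3′ ends were covered when all peaks were counted, whatever gene they were listed for. A peak at chr1:178316982-178322476 covered the 3′ end of Hnrnpu, with a width of 5495 bp and 12.8-fold enrichment, and the list gives it to Cox20, whose start is 599 bp from its centre. Another at chr7:28822156-28826248 covered the 3′ end of Hnrnpl, with a width of 4093 bp and 13.7-fold enrichment, and is listed for Ech1 at 1015 bp. With these, 9 of the 21 genes (42.9%) had their 3′ end under a peak and all 9 also had their RefSeq 5′ end under one. Over 17492 protein-coding genes with a known strand, 2.16% had a 3′ end under any peak and 0.949% had both ends. The members were selected for having a peak, which those genes were not. Of the 3544 such genes in the list, 8.27% had a covered 3′ end and 4.40% had both ends covered.

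The share of each gene's span that lay inside peaks had a median of 27.1% over the 21 members, against 1.99% over all 3582 listed genes with a strand and 4.16% over the 2185 of them in the members' length range. In that length range, the 627 genes with at least 1 wide peak had a median of 10.0%, and the 19 members with one 30.7%. Hnrnpab led with 94.3% of its 6782 bp, followed by Srsf6 with 71.4%, Hnrnpa2b1 with 69.4% and Srsf3 with 59.1%. Hnrnpc and Srsf12 had no base of their span under a peak, and Hnrnpm had 2.64% of the longest member span.

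**Figure D3:**
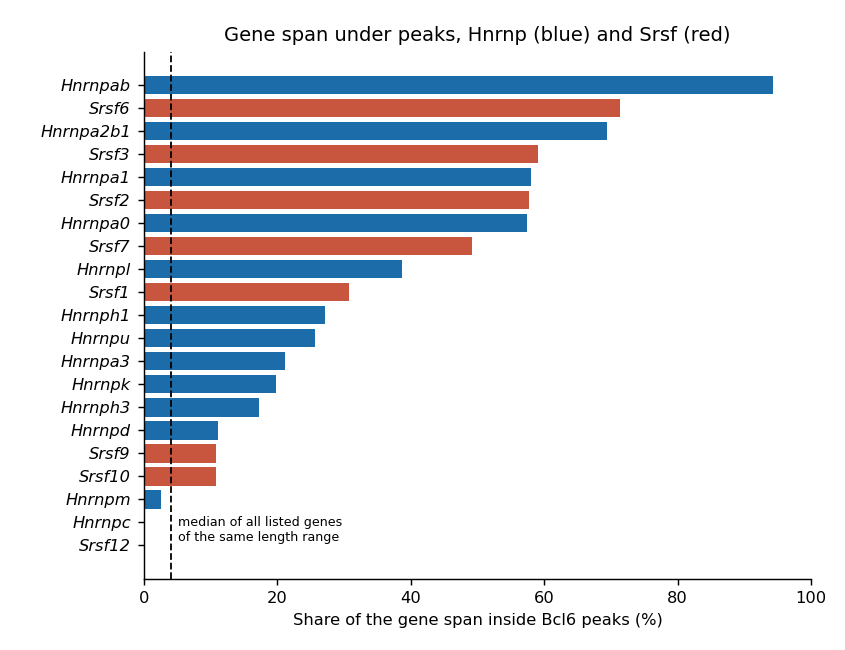
Share of each RefSeq gene span inside Bcl6 peaks, in percent, for the 13 Hnrnp (blue) and 8 Srsf genes (red). The dashed line is the median of listed genes in the same length range, 4.16%. The members run from 0 at Hnrnpc and Srsf12 to 94.3% at Hnrnpab, and 18 of the 21 exceed the line.

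Several members had more than 1 peak. There were 2 or more at 10 of 21 genes (47.6%), where 20.4% of listed genes had as many. Most peaks had the member as their nearest listed gene (30 of 35), and 26 of 35 were also listed for a second gene. In the whole list 3875 peaks made 5801 pairs, so listing for more than 1 gene was common, and nothing is read from either count. Among the 15 peaks within 1 kb of a member's TSS, 6 (40.0%) were within 1 kb of another listed TSS too, against 20.3% of all such pairs. Those 6 were at Hnrnpa1 with Cbx5, Hnrnpd with 4930524J08Rik, Hnrnph3 with Pbld2, Hnrnpk with Rmi1, Srsf2 with Mfsd11 and Srsf7 with Ttc39d, and a peak there cannot be given to one of the 2 genes.

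The A/B type hnRNPs, abundant RNA-binding proteins with paired RNA recognition motifs, had from 21.1% (Hnrnpa3) to 94.3% (Hnrnpab) of their span under peaks. Hnrnpab, which also binds DNA and helps to transport neuronal mRNA, spans chr11:51600100-51606881 on the minus strand and was covered by 3 peaks almost end to end. The start peak at chr11:51605120-51607601 was centred 487 bp downstream, was 2482 bp wide and held 115 tags at 10.1-fold, with a score of 52.4 and an FDR of 2.7%. The middle peak at chr11:51600777-51604835, centred 4041 bp downstream, was 4059 bp wide with 143 tags at 13.3-fold, a score of 99.0 and an FDR of 0.72%. The 3′ peak at chr11:51597184-51600676, centred 7917 bp downstream, was 3493 bp wide with 121 tags at 12.4-fold, a score of 84.9 and an FDR of 0.66%. Gaps of only 284 and 100 bp separated them. The middle and 3′ peaks are also listed for Agxt2l2, at 18.0 and 14.2 kb.

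Hnrnpa2b1, a splicing repressor that also sorts RNA into granules and vesicles, had 2 of the widest member peaks. Its start peak at chr6:51465198-51471809 was 6612 bp wide, centred 1391 bp downstream, with 291 tags at 12.0-fold, a score of 60.8 and an FDR of 1.09%. Its 3′ peak at chr6:51455625-51462254 was 6630 bp wide, centred 10.955 kb downstream, with 427 tags at 16.3-fold, a score of 328 and an FDR of 2.41%. The call was therefore far stronger at the 3′ end than at the start, at nearly equal width. The start peak was also listed for Cbx3 at 2.03 kb and the 3′ peak for Nfe2l3 at 26.3 kb.

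Hnrnpa1, the archetypal splicing silencer, showed the same order by score but not by fold, and its 3′ peak was the wider. The peak over its start at chr15:103238993-103242081 (3089 bp, centred 105 bp downstream) held 141 tags at 11.2-fold, with a score of 59.5 and an FDR of 1.31%, and lay 721 bp from the start of Cbx5. The peak over its 3′ end at chr15:103244920-103249797 (4878 bp, centred 6926 bp downstream) held 298 tags at 9.82-fold, with a score of 125 and an FDR of 0.83%. That fold is the lowest at any Hnrnp gene, although the tag count ranks 65 among all 3878 peaks. The start of Nfe2, at 4.32 kb, was nearer to it than the start of Hnrnpa1.

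Hnrnpa3, a close relative of these proteins, had the opposite order by score. Its start peak at chr2:75657748-75661093 (3346 bp, 159 bp downstream) held 145 tags at 20.1-fold, with a score of 162 and an FDR of 1.15%. Its 3′ peak at chr2:75669220-75672359 (3140 bp, 11.528 kb downstream, also listed for Nfe2l2 at 33.9 kb) held 192 tags at 10.6-fold, with a score of 98.9 and an FDR of 0.72%. More tags thus came with a lower fold. Hnrnpa0, which binds AU-rich elements of mRNA and spans 2678 bp, the shortest member, had 1 peak at chr13:58127020-58129444. It was 2425 bp wide, centred 324 bp downstream, with 113 tags at 22.8-fold, a score of 177 and an FDR of 1.46%.

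Hnrnpd, which binds AU-rich elements and directs mRNA decay, held the peak least like the others. Deep in the gene at chr5:99958928-99959933, 19.508 kb downstream of the TSS, it was 1006 bp wide with 75 tags, 47.05-fold enrichment, a score of 154 and an FDR of 1.02%. It was the only member peak above 30-fold, at rank 153 of 3878 by fold, and is also listed for A930011G23Rik at 230 kb. The Hnrnpd start peak at chr5:99977556-99979764 was of the usual kind, 2209 bp wide, 278 bp downstream, with 112 tags at 13.35-fold, a score of 63.1 and an FDR of 0.8%, and lay 401 bp from the start of 4930524J08Rik. The list also holds Hnrpdl, an older symbol of Hnrnpdl, the paralog of Hnrnpd, which the symbol rule does not take. Its peak at chr5:100038160-100040404 was centred 60 bp upstream of the TSS, 2245 bp wide, with 109 tags at 23.9-fold and a score of 120.

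Hnrnpc, which binds uridine tracts and measures transcript length, was a member only by distance. Its peak at chr14:52065511-52067926 lay 37.310 kb downstream of the TSS and 5451 bp past the end of the gene, with a width of 2416 bp, 113 tags, 13.3-fold enrichment, a score of 52.25 and an FDR of 2.69%. The start of Olfr221, at 30.6 kb, was nearer. No peak covered either end of Hnrnpc.

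The H type hnRNPs bind runs of guanines. Hnrnph1, on the plus strand at chr11:50375257-50386528, had 3 peaks, all also listed for Rufy1 at 39.7 to 52.9 kb. The start peak at chr11:50376680-50379738 was 3059 bp wide, centred 1219 bp downstream, with 150 tags at 17.7-fold, a score of 122 and an FDR of 0.96%, and it held all 5 RefSeq promoter windows of the gene. It covered the listed TSS but not the RefSeq 5′ end of the span at position 50375257. The next, at chr11:50386729-50388874, began 201 bp past the gene's end, centred 10.811 kb downstream, and had 101 tags over 2146 bp at 17.7-fold, with a score of 110 and an FDR of 0.79%. The last, at chr11:50391004-50391920, centred 14.472 kb downstream, was the narrowest member peak at 917 bp, with 30 tags at 21.3-fold, a score of 51.8 and an FDR of 2.7%. Hnrnph1 thus had a peak just beyond its 3′ end rather than over it. Hnrnph3 had 1 peak at chr10:63022370-63024703, centred 358 bp downstream and 976 bp from the start of Pbld2, with 106 tags over 2334 bp at 15.1-fold, a score of 109 and an FDR of 0.78%.

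Hnrnpk, which binds cytidine-rich RNA and DNA through KH domains, had 1 peak at chr13:58400668-58403090, centred 623 bp downstream and 718 bp from the start of Rmi1, with 119 tags over 2423 bp at 16.8-fold, a score of 136 and an FDR of 0.83%. Like the Srsf1 peak, it covered the listed TSS but not the RefSeq 5′ end. Hnrnpl, which binds CA repeats, had a pair of peaks 43 bp apart at its start. That at chr7:28808357-28810709, 992 bp downstream, was 2353 bp wide with 139 tags at 15.2-fold, a score of 100.02 and an FDR of 0.73%. That at chr7:28810753-28813789, 3730 bp downstream and also listed for Ech1 at 12.9 kb, was 3037 bp wide with 175 tags at 23.6-fold, a score of 220 and an FDR of 2.21%. The peak at chr7:28810753-28813789 was thus the stronger call of the pair. It counts as inside the gene by the listed TSS, but it covered the RefSeq start whose promoter window is chr7:28810640-28810939.

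Hnrnpm, which binds GU-rich RNA, had 1 peak at chr17:33684425-33686014, 1641 bp downstream of the listed TSS and also listed for Pram1 at 47.2 kb. It was 1590 bp wide, with 68 tags at 21.1-fold, a score of 86.8 and an FDR of 0.62%. It counts as inside the gene by the listed TSS, but it covered the RefSeq 5′ end at position 33685458. Hnrnpu, which binds RNA and scaffold DNA and shapes chromatin, had its start peak at chr1:178335705-178339386, 252 bp downstream, with 198 tags over 3682 bp at 12.2-fold and a score of 97.15.

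Among SR proteins, Srsf3 had the strongest call and the most peaks. It encodes the smallest SR protein, which couples splicing to mRNA export, and spans chr17:29032660-29043372 on the plus strand. The peak over its start at chr17:29031551-29038235, centred 2220 bp downstream, was 6685 bp wide with 285 tags at 16.6-fold, a score of 102 and an FDR of 0.66%. The peak over its 3′ end at chr17:29042619-29051011, centred 14.142 kb downstream, was 8393 bp wide with 476 tags at 21.9-fold. Its score of 494 was the highest and its width the greatest among the members, at ranks 37 and 8 of 3878, and its FDR of 5.41% was the only one above 5%.

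A pair of peaks further on belonged to Srsf3 by the list only. That at chr17:29077975-29079742, 46.185 kb downstream, was 1768 bp wide with 59 tags at 15.6-fold, a score of 72.5 and an FDR of 0.58%. That at chr17:29080281-29082517, 48.726 kb downstream, was 2237 bp wide with 104 tags at 25.1-fold, a score of 89.4 and an FDR of 0.58%. All 4 peaks were also listed for Cdkn1a, the cell cycle inhibitor p21, whose start was 14.9 and 12.4 kb from these 2 and so nearer than that of Srsf3.

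Srsf2, an SR protein of nuclear speckles that activates exons, had the strongest start peak of all members. At chr11:116851493-116854245, 225 bp downstream, it was 2753 bp wide with 198 tags at 29.3-fold, a score of 337 and an FDR of 2.56%. It shares this peak with Mfsd11, whose start was 951 bp away. Srsf1, the founding member of the family, had 1 peak at chr11:88046615-88048846, centred 357 bp downstream, 2232 bp wide, with 98 tags at 19.3-fold and a score of 111.

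Srsf6 and Srsf7, both SR proteins that regulate alternative exons, repeated the pattern of a peak at each end. At Srsf6 (chr2:162931508-162937121, plus strand) the start peak at chr2:162930513-162932703, 80 bp downstream, was 2191 bp wide with 90 tags at 11.4-fold, a score of 65.2 and an FDR of 0.77%. Its 3′ peak at chr2:162934311-162937755, 4505 bp downstream and also listed for L3mbtl1 at 7.44 kb, was 3445 bp wide with 125 tags at 15.1-fold, a score of 91.1 and an FDR of 0.6%. The 3′ peak was the stronger at Srsf6 and the weaker at Srsf7. At Srsf7 the start peak at chr17:80205514-80207879, 609 bp downstream and 764 bp from the start of Ttc39d, was 2366 bp wide with 115 tags at 15.7-fold, a score of 79.05 and an FDR of 0.57%. Its 3′ peak at chr17:80198843-80201809, 6979 bp downstream and also listed for Galm at 72.9 kb, was 2967 bp wide with 130 tags at 9.71-fold, the lowest member fold, a score of 69.9 and an FDR of 0.58%.

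The other SR genes had weaker calls. Srsf9 had a peak of 1466 bp at chr5:115326425-115327890, with 50 tags at 18.2-fold and a score of 64.1. Srsf10, whose product represses splicing when dephosphorylated, had the lowest member score, 51.7, at chr4:135854807-135857275, with 106 tags over 2469 bp at 11.2-fold, 294 bp downstream and an FDR of 2.68%. Srsf12, a distant SR relative, was a member by distance alone. Its peak at chr4:33242116-33244602 lay 34.368 kb downstream and 8773 bp past the gene's end, nearer to Pnrc1 (5.15 kb), with 87 tags over 2487 bp at 11.5-fold, a score of 63.9 and an FDR of 0.78%. The 4 weakest member scores, 51.7 to 52.4, were those of Srsf10, Hnrnph1, Hnrnpc and Hnrnpab, just inside the calling threshold, where the lowest score of all peaks was 50.03. Regions below that threshold were not analysed here.

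**Figure D4:**
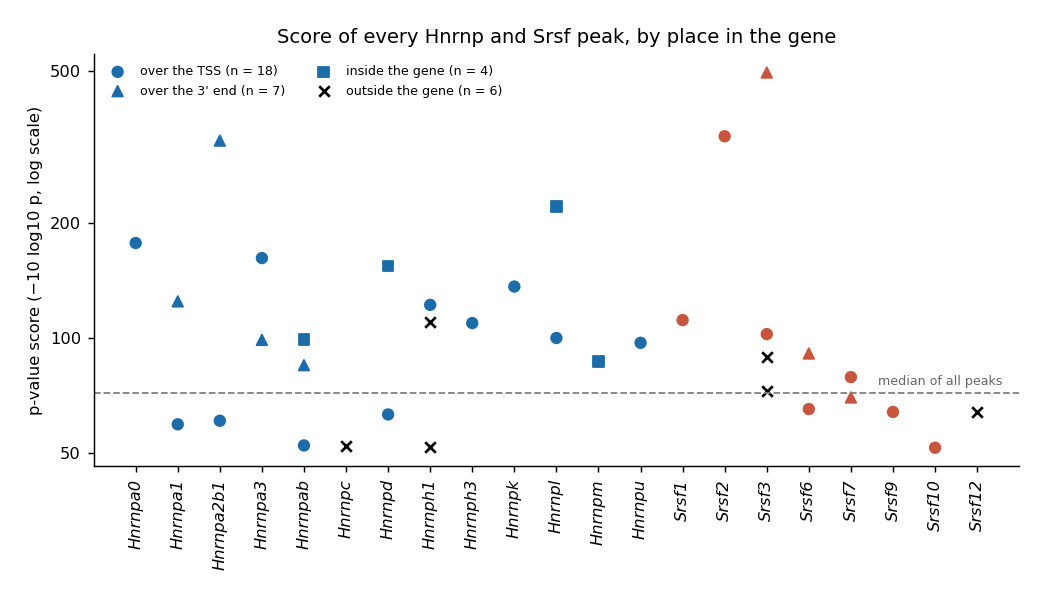
The p-value score (−10 log10 p, log scale) of each of the 35 member peaks by gene, blue for Hnrnp and red for Srsf genes, with the symbol giving the peak's place. The dashed line is the median of all peaks, 71.7. The highest scores are the 3′ peak of Srsf3 (494), the start peak of Srsf2 (337) and the 3′ peak of Hnrnpa2b1 (328).

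Not every gene of these families was in the list. RefSeq names 31 protein-coding Hnrnp and numbered Srsf genes, and 22 of them (71.0%), Hnrnpdl included, had a listed peak, where 20.1% of 21900 protein-coding genes did. The members were selected by that same peak call, so nothing is read from the difference. The 9 others were Hnrnpf, Hnrnph2, Hnrnpll, Hnrnpr, Hnrnpul1, Hnrnpul2, Srsf4, Srsf5 and Srsf11. Of these, Hnrnpf had peaks on its span all the same. That at chr6:117906352-117909259 was 2908 bp wide at 17.7-fold with its centre 45 bp from the start of 4933440N22Rik, to which it is listed. That at chr6:117925555-117930664, 5110 bp wide at 10.6-fold, covered the 3′ end of Hnrnpf. The nearest peak to any of the other 8 was 16.2 kb away, at Hnrnpul2, and the farthest 927 kb, at Hnrnph2.

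Other splicing genes, from a list drawn up with earlier results of these data known, had a listed peak in 42 of 92 cases (45.7%), against the same 20.1%. Among relatives of hnRNPs 12 of 21 had a peak, with a median of 16.7-fold and 2510 bp over 23 peaks, of which 15 were wide. Ptbp1, the repressor of neuronal exons in progenitors, had a peak over its start (3950 bp, 20.6-fold) and another over its 3′ end (2510 bp, 43.9-fold), and Pcbp1, a cytidine-binding relative of Hnrnpk, likewise (3416 bp at 20.5-fold and 2360 bp at 18.2-fold). Among relatives and kinases of SR proteins 9 of 18 had a peak, with a median of 17.02-fold and 1870 bp over 13 peaks, of which 3 were wide and none covered a 3′ end. Son, a speckle protein, had a start peak of 2556 bp at 21.3-fold.

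Core spliceosome genes and tissue-restricted regulators made up the rest of the list. In the core 16 of 36 genes had a peak, with a median of 18.2-fold and 1768 bp over 18 peaks, of which 8 were wide. Sfpq, a paraspeckle protein, had a start peak of 3282 bp at 18.2-fold and a second peak of 3463 bp at 19.3-fold inside its span. Among tissue regulators 5 of 17 genes had a peak, and 1 of their 8 peaks was wide. Rbfox2 held 4 of these, and its start peak of 1454 bp was 20.3-fold enriched. Differences between these groups and the members were not tested.

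Ribosomal protein and translation factor genes were the 2 other gene families set beside the members. Both were taken by symbol prefix (chiefly Rpl, Rps, Eif or Eef plus a number), so they may hold genes with other functions. Of 101 peaks at 72 ribosomal protein genes 59 (58.4%) were wide, with a median of 2509 bp and 19.9-fold, and 26 of 72 pairs with a strand (36.1%) covered a 3′ end. Of 43 peaks at 29 translation factor genes 18 (41.9%) were wide, with a median of 1544 bp and 20.3-fold, and 5 of 36 pairs covered a 3′ end. Wide peaks and covered 3′ ends were therefore also seen in these families. The members had the lowest median fold of the 3 sets and the largest shares of wide peaks and of centres downstream of the start (97.1%, against 82.2% and 67.4%), differences that were not tested because the peak calls selected all 3 sets.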

How the data were processed

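Bcl6 ChIP and input DNA were sequenced in 3 libraries each, and the authors pooled each group, per the series' design. Bowtie, a short-read aligner, and mm10 are named in the submitters' processing notes. The Bowtie version and the treatment of reads that match several places, such as processed pseudogenes of these genes, are not given in the sources used here. Per the file headers, MACS 1.4.2 called the peaks at p of 1e-05 (300 bp band width, 26 bp tags, 188 bp fragments, local background over 1000 and 10000 bp). The deposited table gives the count of pooled ChIP tags per peak, the fold enrichment as a ratio over the local input background, a p-value score (−10 log10 p, its column name overwritten and inferred from column order and minimum) and an empirical FDR in percent. The authors' gene list is the output of GREAT 3.0.0, per the file headers, with domains of 5000 bp upstream and 1000 bp downstream extended by up to 1000000 bp.

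List entries were joined to the peak table by peak number. The TSS implied by a centre and its distance lay a median of 46.5 bp from an end of the named gene in RefSeq GRCm38.p6, and within 1 kb in 82.4% of 4579 pairs. Strands came from the RefSeq promoter table, which gave one for all 21 members and for 4579 of 5801 pairs. Gene spans only were used, not exons. The rules that place a peak in its gene were tested on simulated data. Python 3.11.15, pandas 2.3.3, NumPy 2.4.6, SciPy 1.17.1 and matplotlib 3.10.9 were used.

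Members and lists were chosen with earlier results of these data known. Values per library were not analysed here, since the peak table used is pooled, so no test was run and shares and medians stand beside those of all peaks, pairs or genes. Every member is named, and full values are given for the strongest, weakest, widest and most distant peaks, peaks listed for 2 genes and members with several peaks. Tag counts carry counting error, and their depth is that of the pools. Alternatives were other thresholds of score, FDR and width, other windows, summits, the nearest gene, 1 peak per gene and the older symbol.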

Additional observations from a re-analysis of the deposited data

How the results depend on the processing

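Of 55 alternatives over 12 results, 47 left a count or median within 1.5 times its value, or a share within its exact 95% interval, and 8 did not. For shares this is a loose criterion. The intervals are wide (8.44 to 36.9% for peaks over the 3′ end) and treat several peaks of 1 gene as independent. With peaks at most 2 kb wide only, 5 member genes and 5 member peaks remained, from 21 and 35, and the median share of gene span under peaks fell to 0%. The share of centres within the window was 62.9% at 5 kb, against 52.1% over all pairs. Peaks over 3 kb were 40.0% of the members and 8.28% of all. Counted over genes and any peak, the 3′ end was covered in 42.9%, against 8.27% of listed genes. The share downstream was 100% for the higher-scoring peaks (at least the median), against 56.5% over all such pairs. For summits it was 82.9%, against 55.2% over all pairs with a strand. The 3′ end and downstream results were themselves chosen after seeing the data, as were their alternatives. So were the alternatives of the gene span and the older symbol, which gave 22 genes and 36 peaks.

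No paired analysis was possible because the peaks come from pooled libraries, and no replicate was left out for the same reason. The input kept fewer tags than the ChIP, and the effect of that depth on width and fold was not tested. A peak shared with a neighbouring gene has no single owner, and regions under the calling threshold were not analysed here.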
